A study of Mus musculus with 6 samples.

Results

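The proximal signalling components of the T cell receptor (TCR) were taken as 10 genes, namely the CD3 chain genes Cd3d, Cd3e, Cd3g and Cd247, the co-receptor gene Cd4, the inhibitory receptor gene Cd5, the kinase genes Lck and Zap70, and the adaptor genes Lat and Lcp2. They were found by symbol, and all 10 were present among the 13709 gene rows of the count table. RNA-Seq had been performed on CD4+YFP+CD25+ regulatory T cells (Tregs) from 2-week-old C57BL/6 mice, with 3 WT and 3 KO samples. KO mice were Foxp3Cre Zfp335fl/fl. Their floxed alleles of Zfp335, which encodes a zinc finger transcription factor, are removed by a Cre recombinase that is driven by Foxp3 and so acts in cells that express it. YFP is made from the same Foxp3Cre allele, so the YFP gate implies that the WT samples, described as littermates, carried this allele too. The study reported early lethal autoimmune inflammation in KO mice and ascribed the lost Treg signature to inflammation. In heterozygous females without inflammation, it found most Treg and helper T cell signature genes almost equal to WT. Loss of Zfp335 in the cell and an inflamed host cannot be told apart in the samples used here. The labels named both lymph nodes and spleen as the source of the same samples, and neither the labels nor the methods stated whether a sample pooled several mice. CD4 protein was part of the sort gate, so Cd4 is a gene whose product selected the cells. Separate cultures or animals were not stated for the replicates, so p-values measure only the spread between these samples.

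The TCR itself has no signalling domain and transmits antigen binding through the associated CD3γ, CD3δ, CD3ε and CD3ζ chains. The kinase Lck, carried by CD4, phosphorylates tyrosine motifs in these chains. The kinase ZAP-70 docks there and phosphorylates the adaptors LAT and SLP-76, from which calcium and Ras signals branch, whereas CD5 on the same membrane dampens the response. In Tregs, TCR signals are known to be needed for their differentiation in the thymus and for their suppressive activity in the periphery.

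The 6 libraries held 32032631 to 40728419 counts, and the 10 genes had between 6569 and 32909 counts in every sample. Zfp335 transcripts were at 101, 94.3 and 103 CPM, the count scaled to a common library size, in WT and 37.0, 37.9 and 40.2 CPM in the samples labelled KO (log2 fold change −1.37, SE 0.07, edgeR adjusted p = 2.14e-05). The level left in KO samples is uncertain, in part because 1107 bases, 23.3% of the Zfp335 exons, overlap exons of the antisense gene Pcif1. Counts were also given per gene, so they do not show which exons remained or how many cells kept the allele. WT replicate 3 stood apart from the other WT samples on the second principal component (−58.9 against 22.1 and 34.4). Its summed Treg markers were at 4320 CPM against 3030 and 3050 CPM in the other WT samples, and its summed proliferation markers at 316 CPM against 752 and 756 CPM. The Treg markers Foxp3, Il2ra, Ctla4, Ikzf2 and Tnfrsf18 were read in every sample, with a sum of 2420 to 2460 CPM in KO samples. The sort gate used CD25, the product of Il2ra, and YFP from the Foxp3 allele, so the presence of Il2ra and Foxp3 was set by the sort.

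The 3 CD3 genes encoding γ, δ and ε lie together on chromosome 9 within 40056 bases (44969572 to 45009627, GRCm38, GENCODE M21 annotation). Cd3g, on the minus strand, and Cd3d, on the plus strand, are divergent, with start sites 1355 bases apart, and Cd3e starts 27841 bases from Cd3d on the minus strand. The 250 bases upstream of the RefSeq start (GRCm38.p6, plus or minus strand as the gene) are given here for these neighbors, whose transcripts were all lower in KO Tregs, and for Cd5, which had the lowest fold change of the 10 genes. The windows are chr9:44980432-44980681 (minus strand) for Cd3g, chr9:44981536-44981785 (plus strand) for Cd3d, chr9:45009612-45009861 (minus strand) for Cd3e and chr19:10738975-10739224 (minus strand) for Cd5. Capitals mark matches to the E-box letters CANNTG, bound by E proteins, which are regulators of T cell genes.
Cd3g: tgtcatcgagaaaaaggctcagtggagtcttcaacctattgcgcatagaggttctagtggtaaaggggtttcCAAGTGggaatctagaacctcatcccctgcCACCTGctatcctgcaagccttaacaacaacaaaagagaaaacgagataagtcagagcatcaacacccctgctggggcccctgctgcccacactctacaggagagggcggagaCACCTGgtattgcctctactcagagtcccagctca
Cd3d: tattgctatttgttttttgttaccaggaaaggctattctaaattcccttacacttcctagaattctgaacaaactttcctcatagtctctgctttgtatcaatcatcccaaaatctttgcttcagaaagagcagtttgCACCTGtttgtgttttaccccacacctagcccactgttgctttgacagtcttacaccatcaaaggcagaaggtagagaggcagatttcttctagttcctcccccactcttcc
Cd3e: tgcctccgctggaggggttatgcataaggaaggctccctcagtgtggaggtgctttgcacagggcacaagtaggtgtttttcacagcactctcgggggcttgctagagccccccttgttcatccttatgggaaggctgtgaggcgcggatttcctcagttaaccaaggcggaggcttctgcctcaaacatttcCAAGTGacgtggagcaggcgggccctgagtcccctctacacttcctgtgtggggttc
Cd5: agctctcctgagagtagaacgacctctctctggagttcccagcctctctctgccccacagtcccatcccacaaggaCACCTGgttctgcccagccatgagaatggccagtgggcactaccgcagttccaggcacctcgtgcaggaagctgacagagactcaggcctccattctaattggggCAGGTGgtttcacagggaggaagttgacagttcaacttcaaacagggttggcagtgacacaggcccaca
Of the 12 promoters that RefSeq start sites gave for 9 of the 10 genes, 11 held an E-box, whereas 66.2% of 32841 promoters in the table did. The letters were searched on both strands, and CANNTG reads the same on each. Cd3g had 3 matches, Cd5 had 2, and Cd3d and Cd3e had 1 each. Genes whose WT and KO samples overlapped held matches too. Cd247 and Lat had 2 each, Lcp2 had 1, Zap70 had 3, 1 and 1 over its promoters, and Lck had 0 and 1. The matches therefore do not set the lower genes apart. The ETS core GGAA, searched on both strands, was in 11 of the 12 against 93.5% of all promoters, and the TATA box TATAAA was in 0 of the 12 against 12.4%. These matches describe letters in the windows and are not evidence of binding.

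CD3 chains form the fixed signalling part of the receptor. In KO Tregs, Cd3g, Cd3d and Cd3e transcripts were all lower than in WT, at 66.5% to 73.0% of the WT mean, whereas Cd247, which encodes the ζ chain, was at 104%. Cd3d, encoding CD3δ, was at 286, 305 and 259 CPM in WT samples and 193, 185 and 186 CPM in KO samples. The lowest WT sample was above the highest KO sample. Cd3d fell by 0.59 on the log2 scale (SE 0.08, 95% interval −0.77 to −0.41, edgeR adjusted p = 0.000944), just past the fold change of 1.5 (0.585 on the log2 scale) that a call required beside a p under 0.05 and an adjusted p under 0.1. Because the estimate sits at that cutoff, its call was lost in 8 of 15 alternative settings, although its log2 fold change stayed between −0.65 and −0.54 and its adjusted p was at most 0.00889 outside glmTreat, which tests against that fold.

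Cd3e, encoding CD3ε, which pairs with either CD3γ or CD3δ in the receptor, was at 529, 463 and 397 CPM in WT and 348, 337 and 329 CPM in KO Tregs. The KO values were lower than every WT value but the WT values were widely spread. Cd3e had a log2 fold change of −0.45 (SE 0.11, 95% interval −0.70 to −0.21, edgeR adjusted p = 0.0114), under the fold cutoff, so Cd3e was not called. Leaving out single samples moved it between −0.56 (without WT replicate 3) and −0.35 (without WT replicate 1). Cd3g, encoding CD3γ, was at 437, 498 and 357 CPM in WT and 320, 299 and 304 CPM in KO samples. The WT and KO ranges did not overlap, with WT replicate 3 nearest to the KO samples. Cd3g had a log2 fold change of −0.49 (SE 0.12, 95% interval −0.76 to −0.21, edgeR adjusted p = 0.0136) and was also not called. When WT replicate 3 was left out, this became −0.61 (SE 0.06, edgeR adjusted p = 7.78e-07) and Cd3g was called. Without WT replicate 2 it was −0.37 (edgeR adjusted p = 0.0332). It was −0.47 without KO replicate 2 (edgeR adjusted p = 0.06) and −0.48 without KO replicate 3 (edgeR adjusted p = 0.0575).

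Cd247 lies on chromosome 1 (165788681 to 165877277, plus strand), away from the other CD3 genes. Cd247 was at 231, 250 and 277 CPM in WT and 270, 257 and 258 CPM in KO samples, and the groups overlapped. Cd247 had a log2 fold change of 0.05 (SE 0.08, 95% interval −0.14 to 0.24, edgeR adjusted p = 0.669), so a reduction of the size of the other 3 chains was outside this interval. It was −0.01 without WT replicate 1. The value is uncertain because 3007 bases, 56.4% of its annotated exons, overlap exons of the antisense gene Pou2f1, and whether the counting used strand was not given in the sources used here. The mean of Pou2f1 was 63.1 ± 0.506 CPM over the WT samples and 60.9 ± 3.68 CPM over the KO samples (SD, n = 3 each).

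**Figure D1:**
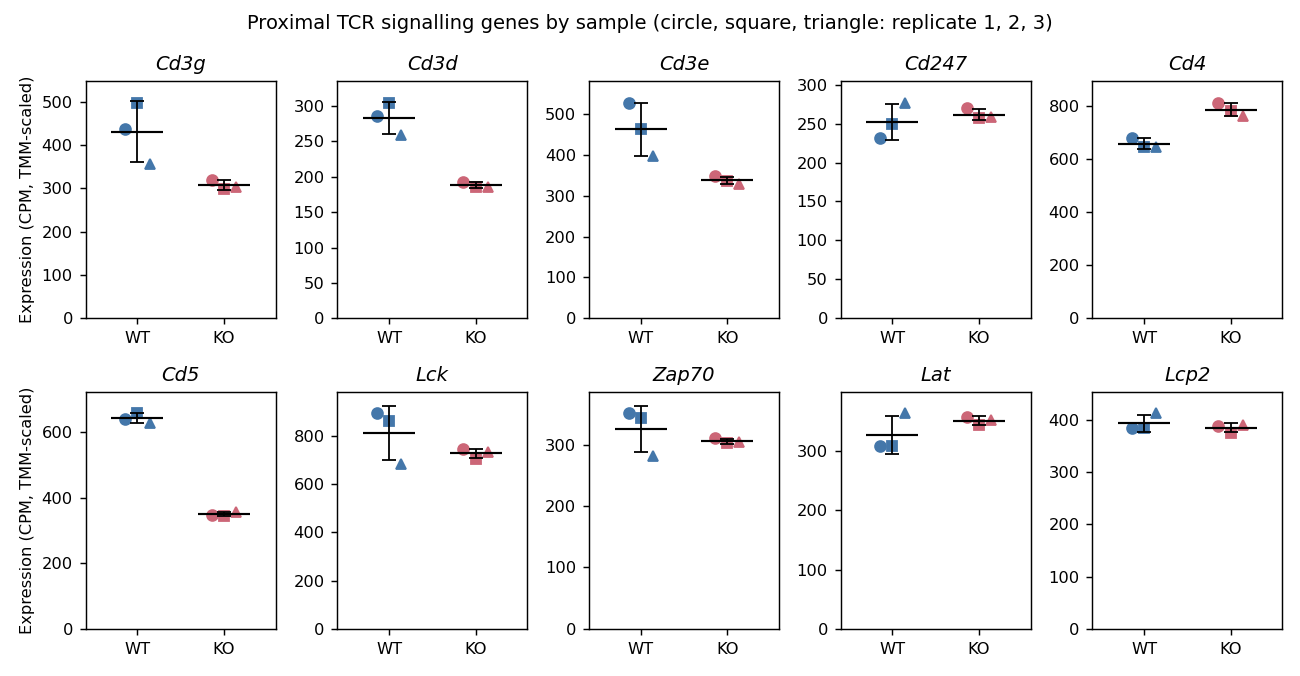
Expression of the 10 genes in CPM (y axis, from 0) in WT (blue) and KO (red) samples, with replicates 1, 2 and 3 as circles, squares and triangles and with the mean and SD in black. Cd3g, Cd3d, Cd3e and Cd5 are lower in every KO sample than in any WT sample, Cd4 is higher, and the other 5 genes overlap.

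Ratios within a sample do not depend on library scaling, and were used to ask whether the chains kept their proportions. The ratio of Cd3d to Cd3e was 0.540, 0.659 and 0.653 in WT and 0.555, 0.550 and 0.566 in KO samples, a log2 difference of −0.14 (exact permutation test, two-sided, p = 0.4). The ratio of Cd3g to Cd3e was 0.827, 1.07 and 0.900 in WT and 0.919, 0.889 and 0.922 in KO samples, a log2 difference of −0.03 (exact permutation test, two-sided, p = 0.9). For both ratios the KO values fell inside the range of the WT values. The ratio of Cd247 to Cd3e was 0.436, 0.540 and 0.698 in WT and 0.774, 0.764 and 0.783 in KO samples. Every KO value was higher than every WT value, with WT replicate 3 the closest, and the mean log2 difference was 0.50 (exact permutation test, two-sided, p = 0.1, the smallest that 3 against 3 samples can give). Without WT replicate 3 it was 0.67. Cd247 was also higher relative to Cd3d (0.64) and to Cd3g (0.53) on the log2 scale, each with an exact permutation p of 0.1. These 2 ratios were among 6 chosen after the values were seen, and over all 9 ratios computed the smallest Benjamini-Hochberg adjusted p of the exact permutation tests was 0.129. Every ratio but those of Cd3d and Cd3g to Cd3e reached an exact permutation p of 0.1. This included Zap70 to Lck (log2 difference 0.06) and Lcp2 to Lat (−0.14), so reaching it does not set Cd247 apart. The overlap with Pou2f1 touches each Cd247 ratio.

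**Figure D2:**
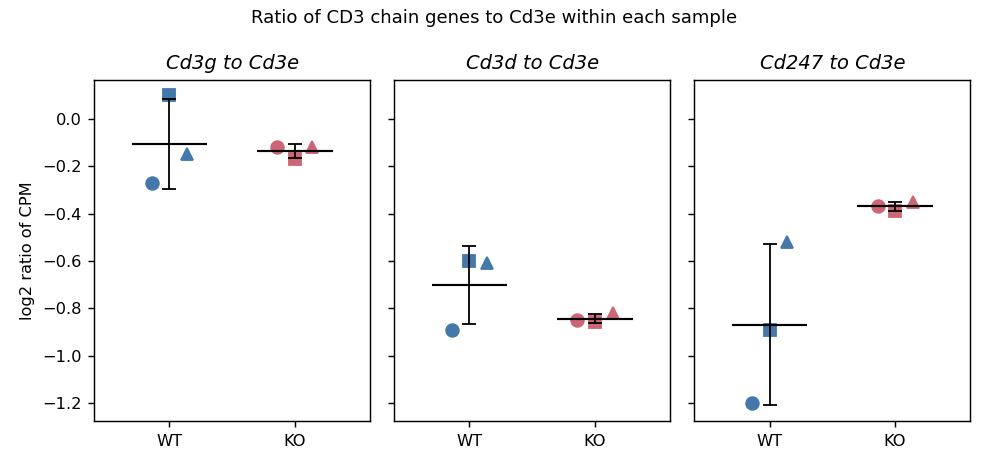
Log2 ratio of Cd3g, Cd3d and Cd247 to Cd3e within each sample (y axis) for WT (blue) and KO (red), with replicates 1, 2 and 3 as circles, squares and triangles and with the mean and SD in black. The KO values of Cd3g and Cd3d lie within the WT range, whereas those of Cd247 (−0.39 to −0.35) lie above all WT values (−1.20 to −0.52).

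Cd4, on chromosome 6 (124864692 to 124888221, minus strand), encodes the co-receptor that binds MHC class II and brings Lck to the receptor. Cd4 was at 682, 646 and 648 CPM in WT and 814, 784 and 765 CPM in KO Tregs. Each KO sample was above each WT sample, and Cd4 was the only one of the 10 genes with that order. Its log2 fold change was 0.26 (SE 0.06, 95% interval 0.11 to 0.40, edgeR adjusted p = 0.0143), a difference larger than the spread between samples but under the fold cutoff. The ratio of Cd4 to Cd3e, another of those chosen after the values were seen, was 1.29, 1.39 and 1.63 in WT and 2.34, 2.33 and 2.32 in KO samples (log2 difference 0.70, exact permutation p = 0.1).

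Cd5, on chromosome 19 (10717116 to 10739002, minus strand), encodes a membrane glycoprotein that restrains TCR signals, and its surface level on T cells is known to follow the strength of the TCR signals the cell receives. Cd5 was at 641, 657 and 627 CPM in WT and 347, 344 and 356 CPM in KO Tregs. The 2 groups were widely separated and the WT samples, replicate 3 included, were close to each other. Cd5 fell by 0.88 on the log2 scale (SE 0.06, 95% interval −1.02 to −0.74, edgeR adjusted p = 5.88e-05), which left KO Tregs at 54.4% of the WT mean. It was called in all 15 alternative settings (log2 fold change −0.92 to −0.80). Cd6, which encodes a receptor of the same family and was named after its values were seen, was at 634, 603 and 560 CPM in WT and 413, 413 and 429 CPM in KO samples. Its groups did not overlap, but its log2 fold change of −0.52 (SE 0.07, edgeR adjusted p = 0.00106) was under the fold cutoff.

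The kinase genes differed less. Lck (chromosome 4, 129548344 to 129573641, minus strand) encodes the Src family kinase that starts the cascade, and was at 894, 860 and 683 CPM in WT and 745, 706 and 732 CPM in KO samples. WT replicate 3 was below all KO samples and the other WT samples were above them. Lck had a log2 fold change of −0.16 (SE 0.10, 95% interval −0.40 to 0.08, edgeR adjusted p = 0.272). Zap70 (chromosome 1, 36761798 to 36782818, plus strand), encoding the kinase recruited to phosphorylated CD3 and ζ chains, was at 351, 344 and 282 CPM in WT and 310, 302 and 305 CPM in KO samples. Its WT samples were arranged around the KO samples in the same way as for Lck. Zap70 had a log2 fold change of −0.09 (SE 0.09, 95% interval −0.30 to 0.12, edgeR adjusted p = 0.466). When WT replicate 3 was left out, the differences on the log2 scale were −0.27 for Lck (SE 0.05, edgeR adjusted p = 0.000283) and −0.19 for Zap70 (SE 0.05, edgeR adjusted p = 0.00519), both still under the fold cutoff. Leaving out WT replicate 1 moved them the other way, to −0.08 for Lck (edgeR adjusted p = 0.58) and −0.04 for Zap70 (edgeR adjusted p = 0.803), and leaving out WT replicate 2 gave −0.12 and −0.06. With offsets for GC content and length, Zap70 was at 0.07 on the log2 scale, so no direction is given for it.

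The adaptor genes were close between genotypes. Lat (chromosome 7, 126363824 to 126369570, minus strand) encodes the membrane scaffold phosphorylated by ZAP-70, and was at 308, 308 and 363 CPM in WT and 357, 343 and 352 CPM in KO samples. WT replicate 3 was above all KO samples and the other WT samples were below them. Lat had a log2 fold change of 0.10 (SE 0.08, 95% interval −0.09 to 0.29, edgeR adjusted p = 0.365). It was 0.18 without WT replicate 3 (SE 0.05, edgeR adjusted p = 0.00685), and 0.06 without WT replicate 1 (edgeR adjusted p = 0.627) or WT replicate 2 (edgeR adjusted p = 0.653). Lcp2 (chromosome 11, 34046920 to 34092295, plus strand), encoding SLP-76, which LAT binds through the adaptor GADS, was at 384, 385 and 413 CPM in WT and 389, 376 and 391 CPM in KO samples. WT replicate 3 was above all KO samples, and the other WT samples lay within the KO range. The log2 fold change of Lcp2 was −0.03 (SE 0.06, 95% interval −0.18 to 0.12, edgeR adjusted p = 0.742), and 282 bases, 6.3% of its exons, overlap the antisense gene 4930469K13Rik.

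**Figure D3:**
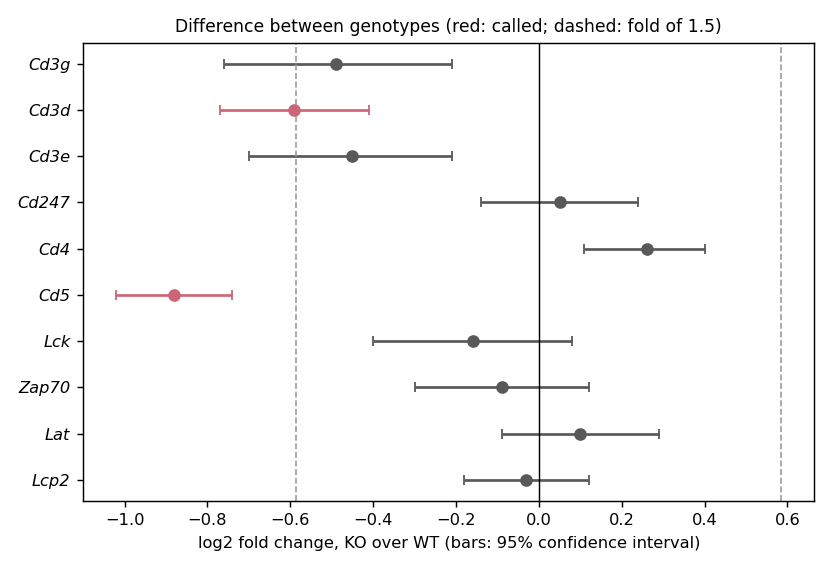
Log2 fold change of KO over WT (x axis) with its 95% confidence interval for each of the 10 genes, with dashed lines at a fold change of 1.5. Cd5 (−0.88) and Cd3d (−0.59) are the 2 called genes, in red, and the interval of Cd247 (−0.14 to 0.24) lies to the right of the estimates for the other CD3 genes.

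The filter on low counts removed none of the 10 genes. Of them, 2 were called lower (Cd3d and Cd5), 0 higher and 8 were not called, against 24.4% of the 13594 genes tested called in either direction, 12.5% called lower and 11.9% called higher. By the adjusted p alone, under 0.1, 4 were lower (Cd3d, Cd3e, Cd3g and Cd5) and 1 higher (Cd4), against 47.0% of all tested genes in either direction, 24.3% lower and 22.7% higher. In these 5 genes the groups did not overlap, with 4 below and 1 above WT, against 53.8% of all genes, 27.6% below and 26.2% above. Counted in either direction, the shares of the 10 genes were near those of the whole table. Their median log2 fold change was −0.13 against −0.04 for all genes tested. The spread was larger in WT than in KO samples for 9 of the 10 genes, with coefficients of variation of 2.37% to 16.4% in WT and 1.36% to 3.54% in KO samples. WT replicate 3 was the lowest WT sample for 6 genes and the highest for 3. It was at 76.4% of the mean of the other WT samples for Cd3g, 77.8% for Lck, 79.9% for Cd3e and 81.4% for Zap70, but at 115% for Cd247 and 118% for Lat. Without it, 9 of the 10 genes had an adjusted p under 0.1 (57.9% of all genes tested) and 3 were called, namely Cd3d, Cd3g and Cd5 (26.8% of all genes).

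**Figure D4:**
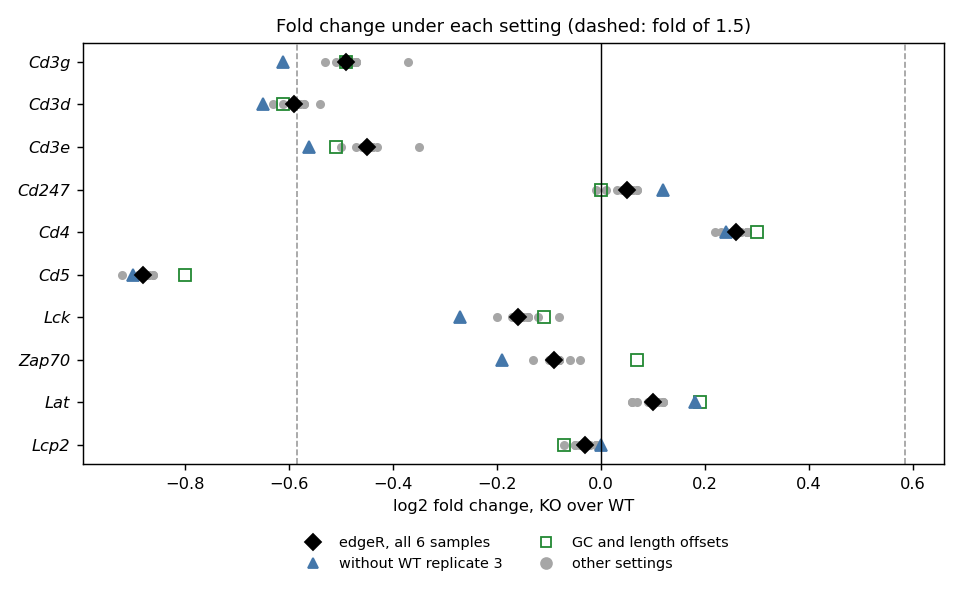
Log2 fold change of KO over WT (x axis) of each gene in the fit to all 6 samples (black diamond), without WT replicate 3 (blue triangle), with GC and length offsets (green square) and in the other settings (grey), with dashed lines at a fold change of 1.5. Cd5 stays past the cutoff in all settings, Cd3d straddles it, and Zap70, Cd247 and Lcp2 lie at or cross 0.

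Levels of different genes were compared as CPM per kilobase of the longest transcript. Lck had the highest level per length in both genotypes, at 372 ± 51.9 in WT and 333 ± 9.15 in KO samples (SD, n = 3 each), and Cd247 the lowest, at 85.4 ± 7.85 and 88.4 ± 2.35. In WT Tregs, Cd5 (215 ± 5.10) and Cd4 (212 ± 6.43) came next to Lck with overlapping samples, and then Cd3e (182 ± 25.9), Cd3d (175 ± 14.3), Cd3g (170 ± 27.8), Lat (159 ± 15.6) and Zap70 (145 ± 16.7), each overlapping the next. Lcp2, at 108 ± 4.50, was separate from both neighbors. In KO Tregs, Cd4 (253 ± 7.95), Lat (171 ± 3.34) and Zap70 (136 ± 1.85) followed Lck, and Cd5 (117 ± 2.06) moved from rank 2 to rank 7, where its samples overlapped those of Cd3g (121 ± 4.29) and Cd3d (116 ± 2.74). With the length of all merged exons in place of the longest transcript, Lck stayed first and Cd247 last in both genotypes. The middle order changed, and Cd5 went from rank 5 to rank 9.

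The wider pathway was described with 69 other tested genes in 6 lists. Of these, 9 were called higher, 5 lower and 55 not, or 20.3%, under the 24.4% of all genes tested, with a median log2 fold change of −0.04. The TCR constant chains were represented by Trbc2, at 643, 705 and 599 CPM in WT and 460, 555 and 536 CPM in KO samples. Its groups did not overlap, and its log2 fold change of −0.33 (SE 0.10, edgeR adjusted p = 0.0299) was not called. Of 3 constant chain genes listed, Trbc2 was the only 1 found by symbol in the count table. Trbc2 is uncertain because Trbc1, a near-identical copy, was not in that table. Trbc2 and Fyn were named after their values were seen.

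Of 7 other proximal kinases, 1 was called higher and 6 were not called (median log2 fold change 0.04). Syk, which encodes the relative of ZAP-70 used mainly by B and myeloid cells, rose from 6.22, 6.67 and 13.8 CPM in WT to 20.0, 19.2 and 22.5 CPM in KO samples, by 1.21 on the log2 scale (SE 0.29, edgeR adjusted p = 0.0143). Fyn, the other Src family kinase of T cells, was at 527, 537 and 526 CPM in WT and 398, 403 and 395 CPM in KO samples, a log2 fold change of −0.41 (SE 0.06, edgeR adjusted p = 0.00132). Fyn was lower in each KO sample than in any WT sample but did not reach the fold cutoff. Of 6 co-receptor and adhesion genes, 1 was called, Cd8a, at 2.31, 1.0 and 2.25 CPM in WT and 4.11, 2.86 and 4.17 CPM in KO samples, a log2 difference of 1.0 (SE 0.37, edgeR adjusted p = 0.0665). Its groups did not overlap, and its call was lost without WT replicate 2 (0.70), without KO replicate 1 (0.92) and without KO replicate 3 (0.91).

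Of 22 adaptors and effectors, 2 were called higher, 1 lower and 19 not called (median −0.14). Themis, encoding an adaptor that tunes TCR signals during selection in the thymus, rose from 37.6, 49.8 and 35.2 CPM to 115, 133 and 129 CPM, a log2 difference of 1.62 (SE 0.14, edgeR adjusted p = 0.000145). Nck2, encoding an adaptor that links the receptor to the actin cytoskeleton, rose by 0.60 (SE 0.09, edgeR adjusted p = 0.00138) and was not called without WT replicate 3 (0.53), without KO replicate 1 (0.55) or when scaled by library totals alone (0.56). Plcg1, encoding the phospholipase that is bound by LAT and SLP-76, fell from 517, 482 and 496 CPM to 340, 323 and 316 CPM, a log2 difference of −0.61 (SE 0.07, edgeR adjusted p = 0.00042) and was not called without WT replicate 1 (−0.58) or with offsets for GC content and length (−0.52).

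Of 19 negative regulators, 3 were called higher, 4 lower and 12 not called (36.8% called, median −0.23). Ubash3b, encoding the phosphatase STS-1 that acts on ZAP-70, fell from 184, 181 and 117 CPM to 53.8, 58.5 and 49.0 CPM, a log2 difference of −1.58 (SE 0.17, edgeR adjusted p = 0.000426). Lax1, encoding an inhibitory transmembrane adaptor, fell from 159, 168 and 129 CPM to 82.3, 74.0 and 76.4 CPM, a log2 difference of −0.97 (SE 0.11, edgeR adjusted p = 0.000447). Pag1, encoding the adaptor that brings the Lck inhibitor CSK to the membrane, rose from 133, 129 and 121 CPM to 244, 251 and 248 CPM, a log2 difference of 0.95 (SE 0.07, edgeR adjusted p = 5.47e-05). The diacylglycerol kinase genes Dgka (−0.67) and Dgkz (−0.66) were also called lower, and the phosphatase gene Ptprj (0.80) and the adaptor gene Dok2 (0.71) higher, on the log2 scale. Dgkz was not called without WT replicate 1 (−0.57) or with offsets for GC content and length (−0.47). Negative regulators of the pathway were therefore called in both directions.

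Of 14 calcium and NFAT genes, 2 were called higher, 0 lower and 12 not called (median 0.17). Itpr1, encoding an IP3 receptor of the endoplasmic reticulum, rose from 96.4, 91.4 and 87.5 CPM to 205, 205 and 188 CPM, a log2 difference of 1.12 (SE 0.07, edgeR adjusted p = 4.07e-05). The genes of the other IP3 receptors, named after their values were seen, were lower in every KO sample than in any WT sample and were not called, with log2 fold changes of −0.40 for Itpr2 (edgeR adjusted p = 0.0022) and −0.18 for Itpr3 (edgeR adjusted p = 0.0649; −0.01 with offsets for GC content and length). Nfatc3, encoding a transcription factor activated by calcineurin, rose from 230, 253 and 254 CPM to 373, 392 and 378 CPM, a log2 difference of 0.63 (SE 0.07, edgeR adjusted p = 0.000438).

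**Figure D5:**
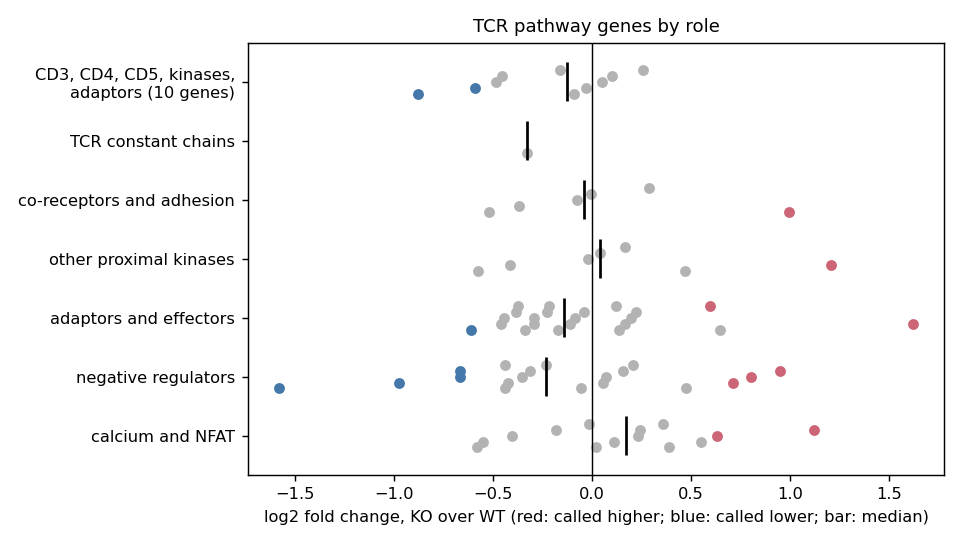
Log2 fold change of KO over WT (x axis) for the 10 genes and the 69 genes of the wider lists (rows), with genes called higher in red, called lower in blue and not called in grey, and the median of each row as a black bar. Negative regulators hold called genes on both sides, from Ubash3b (−1.58) to Pag1 (0.95), and the 10 genes have called genes on the lower side alone.

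Some genes listed as markers of other cells, and those of cycling cells, moved with genotype. Of 11 myeloid markers tested, 9 were called higher, and their sum was 26.2 to 31.9 CPM in WT and 63.1 to 72.3 CPM in KO samples, with S100a8 and S100a9 at 0 counts in every WT sample. In the study's single-cell data from younger mice, a Treg cluster that it named dysfunctional expressed S100a8 and S100a9 highly, and also Mki67 and Top2a. The study reported that this cluster was more frequent in KO mice and had lower Il2ra than its resting Tregs. Mki67 and Top2a were also described as enriched in its central Treg cluster, whose frequency it found unaffected in KO mice. Which cells gave these transcripts here was not tested. Of 4 NK cell markers, 3 were called higher (sum 3.78 to 5.89 CPM in WT, 15.4 to 17.3 CPM in KO samples), Eomes among them. The sum of 8 B cell markers was 22.8 to 27.5 CPM in WT and 21.7 to 23.1 CPM in KO samples, with 1 called higher and 1 lower. The 2 CD8 T cell markers summed to 9.32 to 13.2 CPM and 12.0 to 12.7 CPM. The 5 erythroid markers, of which 0 were called, summed to 23.3 to 101 CPM and 43.2 to 49.8 CPM. Of the γδ T cell and thymocyte lists 1 gene each was tested, Sox13 (0.213 to 0.407 CPM in WT, 0.149 to 0.851 CPM in KO samples) and Cd1d1, which was called lower (39.2 to 45.0 CPM, 21.5 to 22.6 CPM). The other genes of both lists, Rag1, Rag2, Ptcra and Dntt among them, were not in the count table. These 2 lists therefore do not measure either cell type. All 5 proliferation markers, Mki67 among them, were called higher, with sums of 316 to 756 CPM in WT and 2380 to 2490 CPM in KO samples. Of the 5 Treg genes, Foxp3 (642 to 1190 CPM in WT, 460 to 472 CPM in KO samples) and Ikzf2 (647 to 757 CPM, 317 to 338 CPM) were called lower. The Foxp3 value of 1190 CPM was that of WT replicate 3, against 738 and 642 CPM in the other WT samples. Il2ra (−0.12, edgeR adjusted p = 0.558), Ctla4 (−0.41, edgeR adjusted p = 0.185) and Tnfrsf18 (−0.11, edgeR adjusted p = 0.512) were not called, on the log2 scale. The part of these markers in the differences of Cd3d, Cd3e, Cd3g, Cd4 and Cd5 was not tested, and in these bulk samples fewer cells of a type and less RNA per cell cannot be told apart.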

How the data were processed

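Per the study's methods and the labels, RNA-Seq libraries were made with the TruSeq RNA kit from sorted Tregs, reads were filtered with SOAPnuke 1.5.6, aligned to mm10 with HISAT2 and quantified with StringTie. The authors deposited counts, as whole numbers without normalization, for each gene and sample. How whole numbers were obtained, and whether counting used strand, was not given in the sources used here. No gene had fewer than 60 counts over the 6 samples, so low genes had been removed. The samples had 32032631 to 40728419 counts each. The intervals given are for differences between samples.

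KO was compared with WT over all 6 samples with edgeR 4.0.16 (R 4.3.3), using filterByExpr at a minimum count of 10 (115 genes removed), TMM scaling and the two-sided quasi-likelihood test with Benjamini-Hochberg adjustment over 13594 genes. Calls required a fold change above 1.5, p under 0.05 and adjusted p under 0.1, the study's cutoffs. SE was the size of the log2 fold change divided by the square root of F. CPM are relative to TMM-scaled totals. Ratios were tested with an exact permutation test over samples. The alternatives were DESeq2 1.42.0, other scalings, filters and cutoffs, GC and length offsets, a replicate block, and leaving out each sample. Scripts were tested on simulated data.

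The 10 genes and all gene lists were chosen with earlier results of these data known. The genes named were the 10 genes, Zfp335, the 3 genes with the largest fold change among those called in each pathway list, and the leading marker genes. Others were named after their values were seen. GENCODE M21 (GRCm38) gave positions, exons and lengths for 97.67% of symbols, and RefSeq (GRCm38.p6) gave promoters for 9 of the 10 genes, all but Cd4. The labels gave no batch, so no result could be repeated within batches. 1 gene of the wider lists is not reported here by name.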

Additional observations from a re-analysis of the deposited data

How the results depend on the processing

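Over all genes, 3318 were called (1618 higher, 1700 lower). This became 5244 (2610 higher, 2634 lower) when the fold cutoff was dropped and an adjusted p under 0.05 was used, and 1686 (941 higher, 745 lower) with glmTreat against a fold change of 1.5, both by construction of the cutoff, and 2867 to 3667 when 1 sample was left out. The calls among the 10 genes, 2 lower and 0 higher, became 4 lower and 1 higher without the fold cutoff and 1 lower with DESeq2, with DESeq2 size factors in edgeR, with at least 10 counts in every sample, and with glmTreat. They were 1 to 3 lower when 1 sample was left out. Each loss was that of Cd3d, whose fold change lies at the cutoff. Its call was lost without WT replicate 1, WT replicate 2, KO replicate 2 or KO replicate 3, one at a time. The 14 calls of the wider lists became 39 without the fold cutoff and 5 with glmTreat, and 13 to 18 when 1 sample was left out. Direction was reversed for Cd247 with offsets for GC content and length (−0.00) and without WT replicate 1 (−0.01), for Zap70 with those offsets (0.07), and for Lcp2 without WT replicate 3 (0.00), and the cause was not tested. When 1 sample was left out, Cd247 ranged from −0.01 to 0.12, Zap70 from −0.19 to −0.04, Lck from −0.27 to −0.08, Lat from 0.06 to 0.18 and Lcp2 from −0.05 to 0.00. The ratio of Cd3g to Cd3e ran from −0.11 to 0.08, of Cd3d to Cd3e from −0.24 to −0.09 and of Cd247 to Cd3e from 0.33 to 0.67 when 1 sample was left out.

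Samples that share a replicate number did not deviate together (correlations of 0.038, 0.04 and −0.012), so the numbers were not taken as a pairing. A fit with the replicate block called 3190 genes (1629 higher, 1561 lower), 3100 of them shared with the fit without it, and the 10 genes kept their 2 calls. The share of calls that were higher was 48.8%, and 44.8% to 55.8% over all alternatives. It rose to 55.8% with glmTreat. With 3 samples per genotype, an exact test of a ratio cannot go below p = 0.1. The unequal spread, larger in WT, is pooled in the fit.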
